A study of Drosophila melanogaster with 6 samples.

Results

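The autophagy genes and the subunit genes of the vacuolar ATPase were followed in imaginal leg discs of Drosophila melanogaster, the larval epithelial pouches that give rise to the legs of the fly. The members were taken by name alone, as every gene whose symbol starts with Atg and a digit or with Vha, a rule that uses no measured value. It took 53 genes, 20 Atg genes and 33 Vha genes, and 52 of them were among the 15133 genes with data. The study sequenced polyA RNA of white [1118] leg discs in 3 libraries from wandering larvae of the last instar (wL3), before the ecdysone peak, and in 3 libraries from prepupae at 2 h after puparium formation (2h APF). Both groups were otherwise untreated discs of the same genotype, and the number and sex of the animals in each library are not given in the sources used here. Neither the labels nor the methods say that the libraries of a stage came from separate animals, so the p-values below measure the spread between these libraries, which may be technical.

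Autophagy encloses cytoplasm in a double membrane, the autophagosome, which then fuses with the lysosome. The Atg1 kinase complex starts the process, a lipid kinase complex with Atg6 and Atg14 marks the membrane, Atg9, Atg2 and the Atg18 proteins feed and read its lipids, and ubiquitin-like conjugation reactions attach Atg8 to it. The vacuolar ATPase is the proton pump that acidifies the lysosome, with a peripheral V1 part that hydrolyses ATP and a membrane part, V0, that carries the protons. In flies, autophagy is known to accompany the removal of larval tissues at metamorphosis, and many pump subunits are encoded by several genes, of which some are used in nearly all tissues and others in few tissues, often the testis.

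Levels are given as CPM, read counts scaled to a common library size with the TMM factors of edgeR, or as TPM, the deposited transcript abundance, which also allows for transcript length. Libraries held 27514509 to 33373176 estimated counts at wL3, against 24395318 to 30880112 at 2h APF. A gene was called changed at an adjusted p under 0.05 (edgeR's quasi-likelihood test, two-sided, Benjamini-Hochberg adjustment over 8943 genes). By that rule 67.4% of all tested genes changed, 30.6% in the direction of 2h APF and 36.9% in the direction of wL3, and the median log2 fold change of all genes was -0.04. When libraries were scaled by their total instead of TMM, all fold changes moved by a median of -0.11 and the share of calls that were higher at 2h APF moved from 45.3% to 34.9%. The 6 leg disc markers (Dll, dac, hth, al, bab2 and dysf) summed to 2025 to 2041 CPM at wL3, against 1814 to 1891 CPM at 2h APF. Of these, Dll, bab2 and dysf were called lower (log2 fold changes of -0.43, -0.61 and -0.31). The other markers dac, hth and al were not called (0.001, 0.05 and 0.005), a called share of 50.0% against 67.4% of all genes. Markers of other tissues moved between and within the stages. The 6 hemocyte markers summed to 144 to 298 CPM at wL3, against 21.2 to 28.6 CPM at 2h APF, and the 6 muscle markers to 55.0 to 258 CPM, against 40.0 to 41.4 CPM. Most of the muscle sum at 2h APF was Act57B (means of 73.8 and 35.2 CPM, not called). The means of Mhc, up, wupA and Tm2 fell from 24.65, 23.0, 15.5 and 13.0 CPM to 0.14, 0.16, 0.34 and 0 CPM. That of Mlc2 fell from 33.15 to 4.80 CPM. The salivary glue genes, of which 5 of 6 had data, fell from between 50.9 and 194 CPM to at most 0.271 CPM. The 5 fat body markers summed to 32.2 CPM in wL3 replicate 1, to 2206 and 3326 CPM in the other wL3 libraries and to between 188 and 855 CPM at 2h APF. The part of these other tissues in the results below was not tested, and in bulk libraries fewer cells of a type and less RNA per cell cannot be told apart.

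Of the 53 members, 38 passed edgeR's filter on low counts and were tested, 19 Atg genes and 19 Vha genes. The other 14 members with data had between 0 and 8 counts in every library, and 7 of them had 0 counts in all 6 libraries. Vha36-3 had no matched transcript in the files and was not analysed here. Among the tested Atg genes 3 were higher and 10 were lower at 2h APF, with a median log2 fold change of -0.15. Among the tested Vha genes 11 were higher and 0 were lower, with a median of 0.17. No Vha gene was lower at an unadjusted p under 0.05 either, by edgeR, DESeq2 or limma. The called share, 68.4% of the Atg genes and 57.9% of the Vha genes, was close to the 67.4% of all genes, so the number of calls does not set the members apart. Their changes were mostly small, with a median size of 0.16 for Atg and 0.17 for Vha genes on the log2 scale against 0.39 for all genes. Only Atg10 and VhaM9.7-c were called with a change of more than 1 on the log2 scale, which 9.74% of all genes passed upwards and 8.9% downwards.

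**Figure D1:**
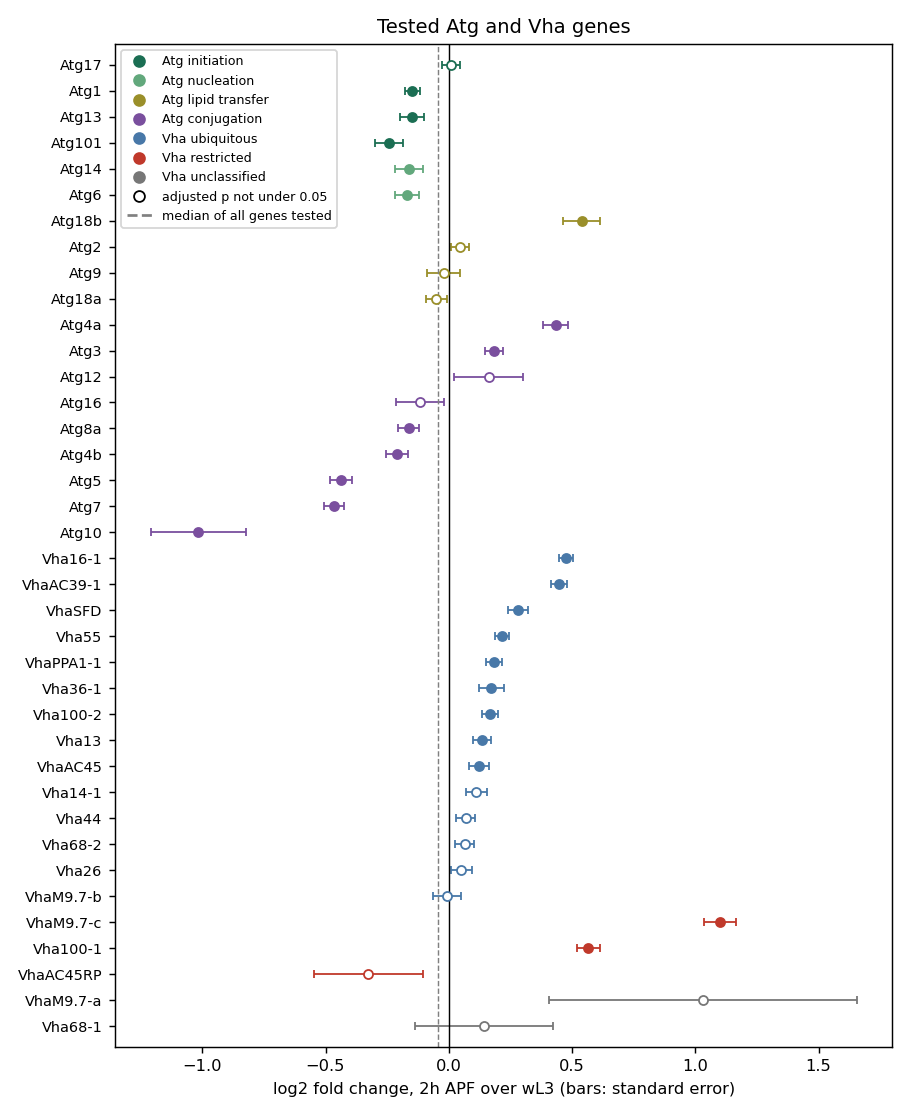
Log2 fold change (2h APF over wL3, x axis) of the 38 tested members with its standard error, coloured by role, with open circles for genes that were not called and a dashed line at the median of all genes. Called Vha genes lie to the right of 0, 10 of 13 called Atg genes lie to the left, and Atg10 (-1.02) and VhaM9.7-c (1.10) lie farthest out among the called genes.

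With scaling by library total, the median was -0.26 for the Atg genes and 0.05 for the Vha genes against -0.16 for all genes. Such scaling moves all genes by nearly the same amount, so it could not change the order of these medians. That scaling left 6 Vha genes higher and 12 Atg genes lower, beside 2212 higher and 4120 lower of 8943 genes. With DESeq2, 14 Vha genes were higher and 4 Atg genes lower, beside 2891 higher and 2832 lower genes. Without wL3 replicate 1, the wL3 library with the lowest summed fat body, muscle and hemocyte markers, 5 Atg genes were lower. Without that library 12 Vha genes were higher, and all genes gave 3043 lower and 2865 higher of 9188. In the 15 alternatives other than a test against a minimum fold change, 10 members were called in the same direction throughout, namely Atg4a, Atg5, Atg7 and Atg10 and the Vha genes Vha16-1, Vha55, VhaAC39-1, VhaSFD, Vha100-1 and VhaM9.7-c. The share of all tested genes that kept their call in this way was not computed, so this number has no background to be set against.

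The 4 genes of the initiation complex were led by Atg1, the protein kinase that starts autophagy. Its level was 82.4, 80.9 and 83.1 CPM at wL3 and 74.4, 74.3 and 73.6 CPM at 2h APF. The stages did not overlap, and the fall was 0.15 on the log2 scale (SE 0.03, adjusted p = 0.00359), which DESeq2 did not call. Atg101, a partner of Atg13, fell by 0.24 on the log2 scale (SE 0.06, adjusted p = 0.00705), from 21.8 ± 0.990 CPM to 18.4 ± 0.631 CPM (SD, n = 3 for these and all later means), a call lost with DESeq2 (adjusted p = 0.0669) and without wL3 replicate 1 (adjusted p = 0.0552). Atg101 lies inside the span of S6KL on the same strand, with 0 shared exonic bases. S6KL had between 507 and 866 counts per library, against 432 to 747 for Atg101, and its part was not tested. Atg13, the regulatory subunit, fell by 0.15 (adjusted p = 0.0299) but was called in only 7 of 16 alternatives. Atg17, the scaffold protein related to mammalian FIP200, lay between 59.8 and 63.6 CPM at wL3, within which all 2h APF libraries fell (61.6 to 61.99 CPM), and was not called (adjusted p = 0.844). Scaling by library total turned Atg17 to a call with a log2 fold change of -0.10.

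Both nucleation genes were slightly lower at 2h APF, as were 36.9% of all tested genes by the same rule. Atg6, the fly Beclin, was at 22.2, 21.3 and 21.8 CPM at wL3 and at 19.4, 20.0 and 18.7 CPM at 2h APF, and its log2 fold change was -0.17 (SE 0.05, adjusted p = 0.0180). Atg14, which directs the lipid kinase to the autophagosome, gave -0.16 (SE 0.06, adjusted p = 0.0360). The stages did not overlap for either gene, as for 73.3% of all tested genes, and Atg14 kept its call in 7 of 16 alternatives and Atg6 in 11.

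Among the 4 genes that supply or read membrane lipids only Atg18b was called, which is 25.0% against 67.4% of all genes. Atg18a and Atg18b encode related proteins that bind the lipid made by the Atg6 complex. Atg18b was at 10.4, 11.8 and 11.4 CPM at wL3 and at 16.9, 16.1 and 15.8 CPM at 2h APF. Every 2h APF library was above every wL3 library, and the log2 fold change was 0.54 (SE 0.07, adjusted p = 0.000529). The most abundant transcript of Atg18b alone gave 0.20 and was not called (adjusted p = 0.635). Atg18a, the more abundant of the pair with 46.4 TPM at wL3 against 6.34 TPM for Atg18b, did not pass the test (log2 fold change -0.05, SE 0.04, adjusted p = 0.340). It was called lower (-0.16) with scaling by library total. Atg9, a transmembrane protein of the vesicles that seed the autophagosome, and Atg2, which moves lipids into it, were also not called (-0.02 and 0.05, adjusted p = 0.802 and 0.284), and their libraries overlapped between the stages.

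Of the 10 conjugation genes 9 were tested, of which 2 were higher, 5 were lower and 2 were not called, with a median log2 fold change of -0.16. Their called share was 77.8%, against 67.4% of all genes. Atg7, the activating enzyme for both ubiquitin-like proteins Atg8 and Atg12, was at 32.0, 31.4 and 30.6 CPM at wL3 and at 22.6, 22.5 and 23.0 CPM at 2h APF. The lowest wL3 library was well above the highest 2h APF library, and Atg7 fell by 0.47 on the log2 scale (SE 0.04, adjusted p = 4.58e-05). Atg10, the conjugating enzyme that hands Atg12 to Atg5, had only between 75 and 315 counts per library. It was at 8.32, 9.20 and 9.48 CPM at wL3 and at 3.26, 4.80 and 5.26 CPM at 2h APF, and its log2 fold change was -1.02 (SE 0.19, adjusted p = 0.00275). The stages did not overlap, but the 2h APF libraries were spread more widely than those at wL3. Atg10 lies on chromosome 2R from 7832171 to 7835518 (BDGP6.54), and 707 of its 1516 exonic bases are also exonic in Dgk on the opposite strand. Dgk had between 33 and 77 counts per library. A further 53 bases are shared with CG12822 on the same strand, whose counts were 1489 to 1840 at wL3, against 885 to 1124 at 2h APF. The part of these neighbours in the value of Atg10 was not tested. The library kit keeps the strand, but the sources used here do not say whether the counting used it, and reads of both genes may then not be told apart.

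Atg5, the acceptor of Atg12, was at 27.2, 26.3 and 26.9 CPM at wL3 and at 20.1, 20.0 and 19.3 CPM at 2h APF. The stages were apart, with a log2 fold change of -0.44 (SE 0.04, adjusted p = 9.83e-05). Atg5 lies inside the span of CG1677 on the same strand, with 0 shared exonic bases. CG1677 had between 6976 and 10605 counts per library, against 462 to 905 for Atg5, and its part was not tested. Atg12 itself was not called (6.01 ± 0.335 and 6.72 ± 0.831 CPM, log2 fold change 0.16, SE 0.14, adjusted p = 0.339), and neither was Atg16, a further part of the Atg12-Atg5-Atg16 ligase (29.7 ± 4.05 and 27.4 ± 1.01 CPM, adjusted p = 0.325). Atg12 shares 64 of its 469 exonic bases with ND-SGDH on the opposite strand. ND-SGDH had between 1068 and 1796 counts per library, against 149 to 208 for Atg12, and its part was not tested. Atg3, the conjugating enzyme for Atg8, rose by 0.18 (SE 0.04, adjusted p = 0.00290), with 58.4, 55.0 and 55.9 CPM at wL3 and 63.9, 64.5 and 63.8 CPM at 2h APF. The rise of Atg3 was 0.07 and not called when libraries were scaled by their total.

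The cysteine proteases Atg4a and Atg4b, which trim Atg8 before conjugation and release it again from membranes, changed in opposite directions. Atg4a was at 64.5, 60.0 and 57.1 CPM at wL3 and at 80.1, 83.2 and 82.0 CPM at 2h APF (log2 fold change 0.43, SE 0.05, adjusted p = 0.000232). Atg4b was at 25.2, 26.5 and 25.8 CPM at wL3 and at 22.2, 21.9 and 22.8 CPM at 2h APF (log2 fold change -0.21, SE 0.04, adjusted p = 0.00396), a fall that was not called with DESeq2. In each gene the stages did not overlap. Atg4a shares 2098 of its 4078 annotated exonic bases with CG4629 on the opposite strand, a gene with between 24 and 107 counts per library, against 1663 to 2338 for Atg4a. Every library gave 100% of the Atg4a TPM to FBtr0077953 (2076 bases), and the overlap of this transcript alone was not worked out. Atg4b shares 207 of its 2665 exonic bases with Tmtc4 on the opposite strand. Tmtc4 had between 472 and 646 counts per library, against 512 to 856 for Atg4b. The part of these neighbours was not tested.

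Atg8a, the protein that coats the autophagosome and the usual marker of it, was the most abundant member of its family. Its level was 285, 282 and 273 TPM at wL3 and 246, 260 and 242 TPM at 2h APF, which was 39.8% and 37.3% of the summed TPM of all Atg genes. In CPM the log2 fold change was -0.16 (SE 0.04, adjusted p = 0.0120), and the call was lost without wL3 replicate 1 (adjusted p = 0.0957) and without 2h APF replicate 3 (adjusted p = 0.0507). Its relative Atg8b, known from the testis, had 0 counts in all 6 libraries, which allows at most between 0.0901 and 0.130 CPM per library at the limit of 3 counts. After Atg8a came Atg3, Atg18a and Atg4a at wL3, and Atg3, Atg4a and Atg18a at 2h APF, and Atg18b was the lowest tested Atg gene at wL3 and Atg10 at 2h APF. The summed TPM of the Atg genes went from 703 ± 4.99 to 668 ± 7.88, a ratio of 0.950, and without Atg8a it was 423 ± 3.76 and 418 ± 3.03.

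**Figure D2:**
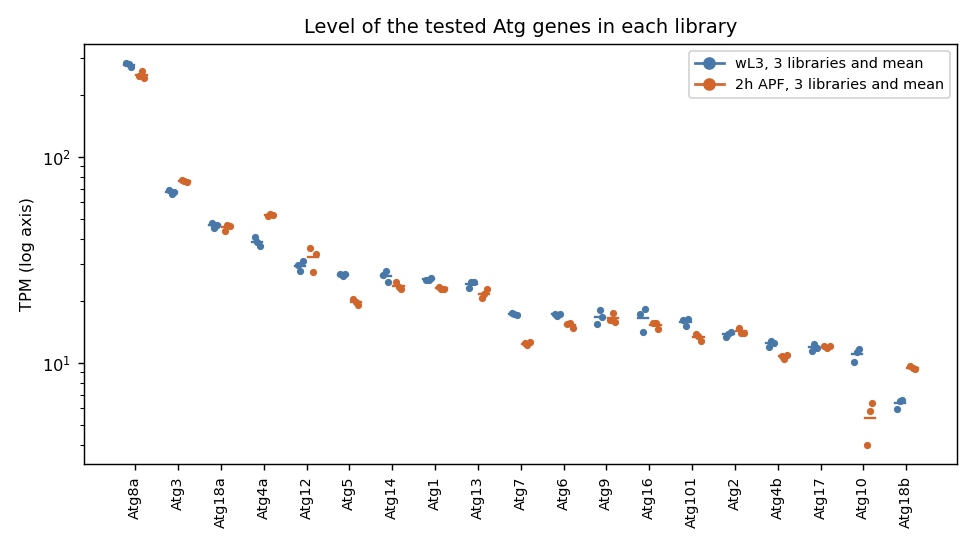
TPM (log axis) of the 19 tested Atg genes in each library, with the mean of each stage as a bar and genes ordered by their wL3 level. Atg8a lies far above the others, and the stages are clearly apart for Atg4a, Atg5, Atg7, Atg10 and Atg18b.

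The Vha genes were set in classes from general knowledge of where each gene is used and not from any file. The class used in nearly all tissues held 14 genes, 1 for each subunit, and the tissue-restricted class held 15 genes, of which 14 had data. In the remaining 4 genes (Vha68-1, Vha100-5, Vha16-5 and VhaM9.7-a) the use was not clear enough to class them. The classes differed in their median level but overlapped, since Vha100-1 of the restricted class was at 50.5 TPM at 2h APF and Vha100-2 of the ubiquitous class at 49.5 TPM. All 14 ubiquitous genes were at 44.1 TPM or more at wL3, with a median of 108 TPM, whereas the median of the restricted genes was 0.00811 TPM and only 3 of 14 reached 1 TPM. The ubiquitous genes summed to 1746, 1726 and 1739 TPM at wL3 and to 2000, 2017 and 1996 TPM at 2h APF, a ratio of 1.15. The restricted genes summed to 54.5, 57.0 and 61.8 TPM at wL3 and to 94.6, 97.7 and 94.1 TPM at 2h APF, a ratio of 1.65. In both classes every 2h APF library was above every wL3 library. Without Vha100-1 and VhaM9.7-c the restricted genes summed to 4.38 ± 0.689 TPM at wL3 and 3.89 ± 0.907 TPM at 2h APF, so these genes carried the rise of the class.

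**Figure D3:**
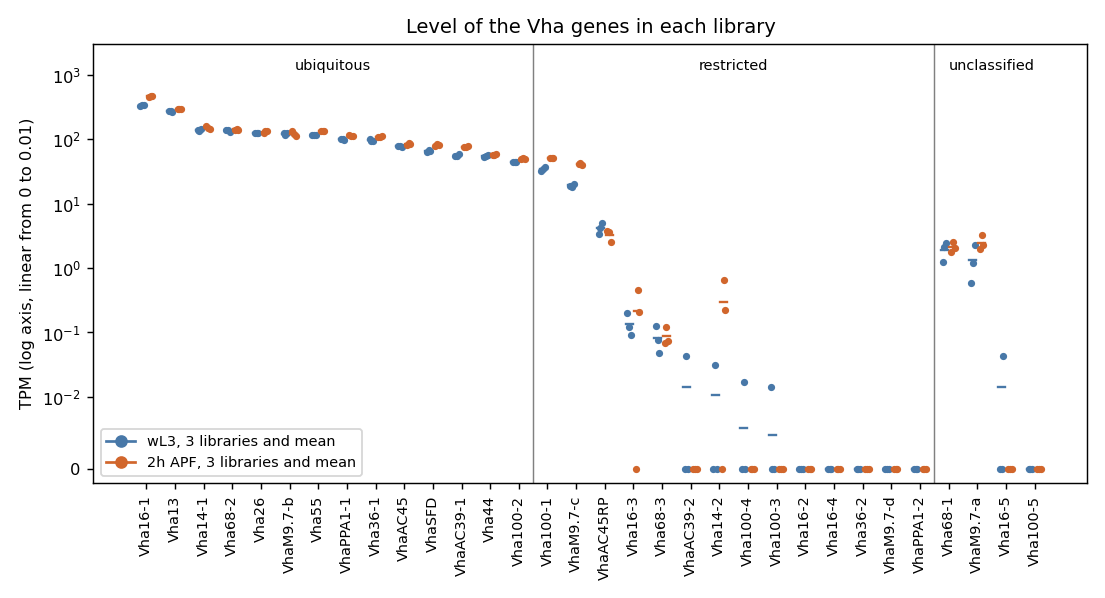
TPM of the 32 Vha genes with data in each library (log axis, linear between 0 and 0.01), with stage means as bars, grouped in the ubiquitous, restricted and unclassified classes. The ubiquitous genes lie between 43.7 and 469 TPM, Vha100-1 is within that range at 2h APF, VhaM9.7-c is just below it, and the other restricted genes are far below.

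Of the 14 ubiquitous genes 9 were higher at 2h APF, 0 were lower and 5 were not called, with a median log2 fold change of 0.15. The called share was 64.3%, against 67.4% of all genes. The number of higher genes was 4 with scaling by library total and 5 by the most abundant transcript of each gene. It was 6 without wL3 replicate 3 and 12 with DESeq2. Over all genes these settings called 2212, 2152, 2585 and 2891 higher. Vha16-1, the c subunit that forms the proton-carrying ring, had the highest level of all Vha genes and the largest rise of the class. It was at 750.0, 748 and 745 CPM at wL3 and at 1013, 1063 and 1040.0 CPM at 2h APF, with a log2 fold change of 0.47 (SE 0.03, adjusted p = 9.09e-06). The wL3 libraries lay close together and far below the 2h APF libraries. In TPM, Vha16-1 made up 18.5% of the summed Vha level at wL3 and 21.9% at 2h APF.

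VhaAC39-1, the d subunit that couples the ring to the V1 stalk, rose nearly as much. Its level was 74.04, 73.6 and 76.4 CPM at wL3 and 99.7, 103 and 103 CPM at 2h APF, and the log2 fold change was 0.45 (SE 0.03, adjusted p = 2.38e-05). The other called V0 genes, VhaPPA1-1 (the c'' subunit) and Vha100-2 (an a subunit), rose by 0.18 (adjusted p = 0.00227) and 0.17 (adjusted p = 0.00314), and both calls were lost with scaling by library total. VhaM9.7-b, the main e subunit, was at 48.8 ± 2.42 and 48.7 ± 2.92 CPM and was not called (log2 fold change -0.01, SE 0.06, adjusted p = 0.926). The 5 ubiquitous V0 genes together went from 655 ± 4.40 to 823 ± 6.95 TPM, a ratio of 1.26, and from 322 ± 5.21 to 361 ± 10.3 TPM without Vha16-1, a ratio of 1.12.

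In the V1 part 4 of 8 ubiquitous genes were called, which is 50.0% against 67.4% of all genes. Vha55, the B subunit of the catalytic head, was at 240, 235 and 240.0 CPM at wL3 and at 275, 280.1 and 275 CPM at 2h APF (log2 fold change 0.22, SE 0.03, adjusted p = 0.000317). VhaSFD, the H subunit, which regulates the coupling of V1 to V0, was at 112, 116 and 113 CPM at wL3 and at 132, 144 and 139 CPM at 2h APF (log2 fold change 0.28, SE 0.04, adjusted p = 0.000671). Neither gene overlapped between the stages. Vha13 (subunit G) rose by 0.13 (adjusted p = 0.0118) and Vha36-1 (subunit D) by 0.17 (adjusted p = 0.0195), and these calls were lost in 5 and 8 of 16 alternatives.

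The A subunit Vha68-2, which holds the ATP-binding sites together with Vha55, was at 266 ± 8.46 and 278 ± 10.7 CPM and did not pass the test (log2 fold change 0.06, SE 0.04, adjusted p = 0.195). Neither did the stalk subunits Vha26 (E, 0.05, adjusted p = 0.315) and Vha14-1 (F, 0.11, adjusted p = 0.0527) or Vha44 (C, 0.07, adjusted p = 0.143). DESeq2 called Vha68-2, Vha14-1 and Vha44 higher, with log2 fold changes of 0.11, 0.16 and 0.11. Vha44 shares 148 of its 4023 exonic bases with Hmgs on the opposite strand, whose counts were 1661 to 1991 at wL3, against 6553 to 11501 at 2h APF. The 8 V1 genes summed to 1005 ± 6.51 TPM at wL3 and 1097 ± 6.541 TPM at 2h APF, a ratio of 1.09. The accessory subunit VhaAC45 rose by 0.12 (SE 0.04, adjusted p = 0.0333), a call that 9 of 16 alternatives did not make. A further accessory subunit known under the older name VhaM8.9 is listed as ATP6AP2 and so falls outside the name rule. It was at 132 ± 5.01 and 151 ± 9.86 CPM (log2 fold change 0.19, SE 0.06, adjusted p = 0.0194), and the call was lost with scaling by library total.

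Of the restricted genes 3 were tested and 2 were higher, a called share of 66.7% against 67.4% of all genes. VhaM9.7-c, an e subunit gene on chromosome 3L from 4186018 to 4186865 (BDGP6.54), had the largest change of all called Vha genes. It was at 10.01, 9.45 and 10.4 CPM at wL3 and at 20.7, 22.4 and 21.1 CPM at 2h APF, and the log2 fold change was 1.10 (SE 0.07, adjusted p = 9.76e-06), a 2.14-fold rise. The stages were far apart, and no annotated exon of another gene overlaps it, although it lies inside the spans of Teh2, on the same strand with between 8 and 25 counts per library, and of CG18675, on the opposite strand with 1 to 9 counts at wL3, against 44 to 57 at 2h APF. VhaM9.7-c itself had between 262 and 602 counts, and the part of these neighbours was not tested.

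Vha100-1, the a subunit best known from neurons, on chromosome 3R from 29131193 to 29137980, was at 77.8, 82.8 and 87.5 CPM at wL3 and at 121, 123 and 124 CPM at 2h APF. The 2h APF libraries were close together and all above wL3, and the log2 fold change was 0.57 (SE 0.05, adjusted p = 4.42e-05). The nervous system markers beside it (elav, nSyb, brp, para and Syt1) summed to 84.0 to 117 CPM at wL3, against 107 to 125 CPM at 2h APF. Most of this sum was elav (means of 80.8 and 84.1 CPM). The mean of nSyb went from 4.37 to 7.69 CPM and that of brp from 5.29 to 9.62 CPM. Those of para (2.47 and 1.95 CPM) and Syt1 (10.6 and 10.1 CPM) did not rise. In each marker the libraries overlapped between the stages. Of these 5 markers 0 were called by edgeR, with 0 at an unadjusted p under 0.05, and 1 was called by DESeq2 and 0 by limma. Their part in the level of Vha100-1 was not tested. VhaAC45RP, a relative of VhaAC45, was at 5.08 ± 0.922 and 4.06 ± 0.811 CPM and was not called (log2 fold change -0.33, SE 0.22, adjusted p = 0.230).

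The other 11 restricted genes with data were at the floor. They had at most 8 counts in any library, 5 of them (Vha16-2, Vha16-4, Vha36-2, VhaM9.7-d and VhaPPA1-2) had 0 counts throughout, and 3 more never passed 3 counts. Many of these genes are known from the testis. Of the 6 testis markers 5 had data, and aly, can, dj and Mst84Da never passed 3 counts in any library. Vha68-3 had between 3 and 8 counts, Vha16-3 had at most 4, and Vha14-2 had 8 and 5 counts in 2h APF replicates 2 and 3 and at most 1 in the other libraries. These genes were below the filter and were not tested, and at such counts no stage difference was detectable. Of the unclassified genes Vha68-1 and VhaM9.7-a were tested and 0 were called, with 0 at an unadjusted p under 0.05 by edgeR, DESeq2 or limma. Vha68-1 was at 3.96 ± 1.20 and 4.37 ± 0.877 CPM. VhaM9.7-a was at 0.389 ± 0.306 and 0.802 ± 0.278 CPM, with between 4 and 29 counts per library. Its log2 fold change was 1.03 (SE 0.63, adjusted p = 0.184), and leaving out single libraries moved it between 0.63 and 1.85, with a call only without wL3 replicate 3 (adjusted p = 0.0377).

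The share of each gene in the TPM of its subunit was then compared, since it does not depend on the scaling between libraries. For most subunits with several genes a single ubiquitous gene gave nearly all of the level. Vha68-2 gave 98.5% of subunit A at both stages, Vha16-1 gave 99.9% or more of subunit c in every library, and VhaAC45 gave 94.9% and 96.2% of the AC45 level. Subunits a and e were the exceptions. Vha100-1 gave 41.9%, 43.4% and 45.4% of subunit a at wL3 and 50.6%, 49.9% and 50.9% at 2h APF, a difference of 6.94 percentage points. The level of Vha100-1 was thus below that of Vha100-2 in every wL3 library, and at 2h APF it was above it in replicates 1 and 3 and slightly below it in replicate 2. The stages did not overlap, and the exact permutation test (two-sided) gave p = 0.1, the smallest that 3 libraries against 3 allow.

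VhaM9.7-c gave 13.2%, 13.5% and 13.9% of subunit e at wL3 and 23.1%, 25.9% and 25.8% at 2h APF, a difference of 11.4 percentage points. VhaM9.7-b went from 85.5% ± 0.945 to 73.6% ± 1.98 while its own CPM was not called. The stages did not overlap here either (exact permutation p = 0.1). With 3 libraries a stage, no share could pass a threshold of 0.05, before or after adjustment over the shares compared. Vha100-3, Vha100-4, Vha100-5 and VhaM9.7-d gave at most 0.0215% of their subunits in any library.

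**Figure D4:**
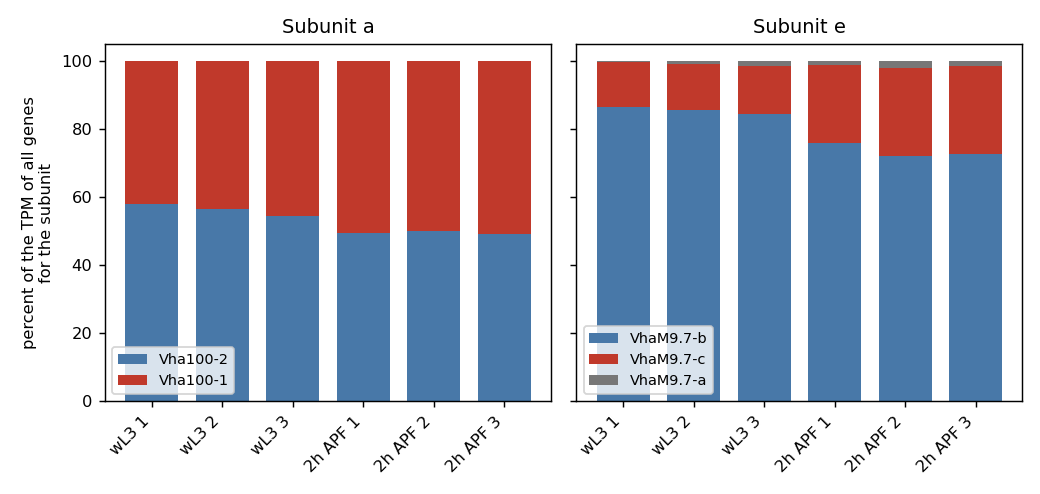
Share (percent of TPM, y axis) of each gene in the level of subunit a (left) and subunit e (right) in each of the 6 libraries, with genes under 0.3% in every library left out. Vha100-1 goes from between 41.9% and 45.4% to between 49.9% and 50.9%, and VhaM9.7-c from between 13.2% and 13.9% to between 23.1% and 25.9%.

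Several annotated transcripts were measured for 21 members with counts in every library. Vha14-2 and Vha16-3 also have several but were left out, since they had 0 counts in some libraries. The 21 members had 63 targets in all. These targets were searched for a transcript whose share of the gene's TPM differed by 10 points or more between the stages without overlap. Only 2 targets met this, both from Atg18a, and 4 more differed by as much but overlapped. FBtr0321319 made up 44.5%, 44.7% and 47.7% of Atg18a at wL3 and 58.4%, 66.9% and 62.9% at 2h APF. FBtr0076691 made up 31.7%, 23.7% and 22.0% at wL3 and 11.9%, 7.83% and 13.9% at 2h APF. The transcripts thus moved in opposite directions within a gene whose total was not called. As features of their own, where 42.6% of all 17601 tested transcripts were called, FBtr0321319 had a log2 fold change of 0.40 (adjusted p = 0.0145) and FBtr0076691 of -1.27 (adjusted p = 0.01005) in edgeR. Both were picked by the stage difference of their shares in these same libraries, so these p-values are no separate support. Counts of transcripts that share most of their sequence were split by kallisto, so these values are estimates whose error within a library was not used here.

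**Figure D5:**
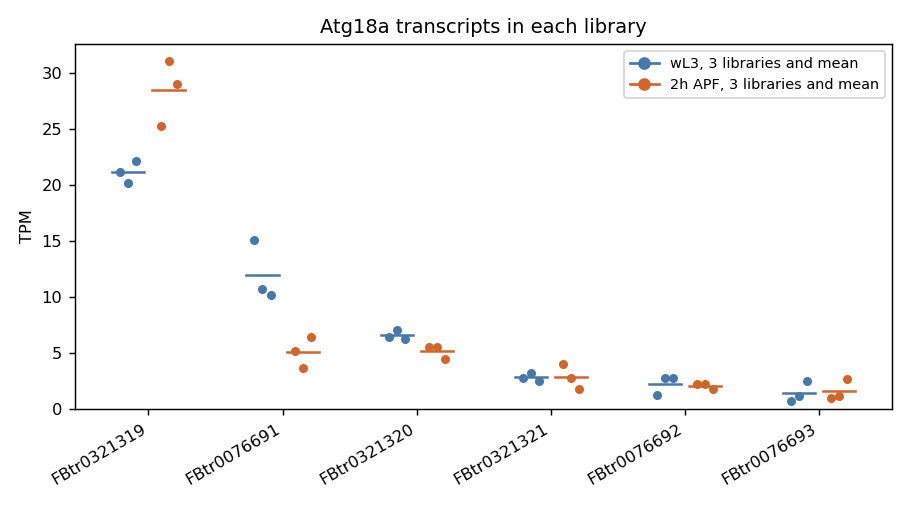
TPM of the 6 Atg18a transcripts in each library, with the mean of each stage as a bar. FBtr0321319 goes from between 20.2 and 22.2 TPM to between 25.3 and 31.1 TPM, FBtr0076691 goes from between 10.2 and 15.1 TPM to between 3.64 and 6.42 TPM, and the other transcripts stay at 7.09 TPM or less.

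The genes that act beside the members were described from lists. Of the 6 partners of the Atg6 lipid kinase complex 3 were higher and 2 were lower, a called share of 83.3% against 67.4% of all genes. EDTP, a lipid phosphatase that opposes the kinase, rose from 59.0 ± 1.37 CPM to 115.6 ± 1.34 CPM without overlap (log2 fold change 0.97, SE 0.03, adjusted p = 1.63e-06). Tango5, the fly relative of mammalian VMP1, rose by 0.51 (adjusted p = 7.49e-05) and Vps15, the regulatory subunit of the kinase, by 0.29 (adjusted p = 0.00380). Uvrag and Rubicon, alternative partners of the complex, fell by 0.19 (adjusted p = 0.0112) and 0.24 (adjusted p = 0.0219), and neither was called with DESeq2. The catalytic subunit, listed as Pi3K59F, was at 23.8 ± 0.892 and 24.2 ± 0.766 CPM and was not called.

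Of 14 genes of cargo selection and fusion with the lysosome 6 were higher, 1 was lower and 7 were not called, with a median log2 fold change of 0.06. Rab7, the GTPase of late endosomes, was at 157, 151 and 150.2 CPM at wL3 and at 201, 219 and 209 CPM at 2h APF (log2 fold change 0.46, SE 0.04, adjusted p = 6.09e-05). The large adaptor bchs rose by 0.93 (SE 0.09, adjusted p = 0.000109). The cargo receptor ref(2)P, the fly p62, which binds Atg8a, was at 98.0, 100.4 and 104 CPM at wL3 and at 126, 133 and 134 CPM at 2h APF (log2 fold change 0.38, SE 0.04, adjusted p = 0.000121). Every 2h APF library was above every wL3 library for these 3 genes. Vps39, a subunit of the HOPS tethering complex, fell by 0.21 (adjusted p = 0.00464).

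Of the 17 lysosomal genes 15 were tested, of which 9 were higher and 2 were lower, with a median log2 fold change of 0.15. Lamp1, a glycoprotein of the lysosomal membrane, was at 245, 233 and 248 CPM at wL3 and at 367, 354 and 368 CPM at 2h APF (log2 fold change 0.59, SE 0.04, adjusted p = 9.69e-06). The protease CtsF rose by 0.32 (adjusted p = 0.000158) and the lysosomal transporter spin by 0.38 (adjusted p = 0.000552), whereas Ppt1, which removes fatty acids from proteins, fell by 0.28 (adjusted p = 0.00258). CtsK1 fell by 0.09 (adjusted p = 0.0409), a call that most alternatives did not make. Of the 3 genes that assemble the pump or are known to control its genes, Rbcn-3A and Rbcn-3B rose by 0.29 (adjusted p = 0.000364) and 0.21 (adjusted p = 0.00371), and Mitf was at 131 ± 3.44 and 127 ± 4.11 CPM and was not called (adjusted p = 0.386). The called share was 73.3% for the lysosomal genes and 50.0% for the cargo and fusion genes, against 67.4% of all genes.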

How the data were processed

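Each stage had 3 strand-specific, paired-end libraries of polyA RNA. The authors assigned reads with kallisto to Ensembl 74 transcripts and lincRNAs, and the submitters' processing notes also name sleuth and the build dm3. The authors deposited an estimated count and a TPM value for each target and library, with no scaling between libraries. One protocol text mentions embryos. The other labels and the methods give leg discs, and these were followed. Targets were matched by FlyBase identifier to the annotation BDGP6.54, whose names and coordinates are used (27011 targets with between 96.4% and 96.6% of the counts). Gene values are rounded sums over targets, and 182 genes that could not be told apart by their values were merged into 56. Libraries of a stage differed by more than counting noise (chi-square per gene of 8.74 or more).

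The stages were compared with edgeR 4.0.16 in R 4.3.3 (TMM, filterByExpr, quasi-likelihood test, no replicate block), and the standard error is the log2 fold change divided by the square root of F. On data simulated for 8827 genes, 50 of 69 genes changed by 0.5 on the log2 scale were recovered, 51 of 62 changed by 1 and 65 of 69 changed by 2, with 13 unchanged genes called. Only 200 genes were changed in the simulation, whereas 67.4% of genes were called in the real data, so these rates may not carry over. Alternatives were DESeq2 1.42.0, scaling by library total, counts rescaled from TPM, 2 other filters, limma 3.58.1 on log2(TPM + 0.5) and log2(TPM + 0.1), glmTreat against 0.5, transcripts, a second threshold, a replicate block and each library left out. Shares and levels between genes use TPM, and the exact tests of shares go through every split of the libraries between the stages. The members, the classes and the gene lists were chosen with earlier results of these data known. Any member or marker could be named, and of each other list up to 3 higher and up to 3 lower genes with the smallest p. Pi3K59F, Mitf, CtsL1, ATP6AP2 and the genes overlapping members fall outside this rule and were chosen after their values were seen. Numbers near a floor cover counting error only. Protein and promoter sequences were not used here.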

Additional observations from a re-analysis of the deposited data

How the results depend on the processing

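Under most alternatives the members kept their direction. A test against a log2 fold change of 0.5 left 0 Atg genes higher and 1 lower, and 1 Vha gene higher (0 ubiquitous and 1 restricted), beside 1186 higher and 1183 lower genes in all. A change of more than 1 on the log2 scale gave the same counts of members (0 and 1 Atg, 1 Vha, 0 ubiquitous and 1 restricted), beside 871 and 796 genes in all. DESeq2 called 4 Atg genes lower and 14 Vha genes higher, 12 of them ubiquitous, beside 2832 lower and 2891 higher of 8943 genes. Scaling by library total called 12 Atg genes lower and 6 Vha genes higher, 4 of them ubiquitous, beside 4120 lower and 2212 higher. Transcripts in place of genes called 9 Atg genes lower and 7 Vha genes higher, 5 of them ubiquitous, beside 2876 lower and 2152 higher of 8892. Leaving out each library in turn gave 3 Atg genes higher and between 5 and 9 lower. It gave between 9 and 12 Vha genes higher, between 6 and 10 ubiquitous and 2 restricted. Over all genes it gave between 2481 and 2865 higher and between 2908 and 3141 lower. Among single genes, the log2 fold change of Atg17 went to -0.10 and the log2 fold change of CtsL1 to -0.0176 with scaling by library total, and that of Atg18a to 0.40 by its most abundant transcript. The causes of these changes were not tested. The share of VhaM9.7-c differed by 13.4 percentage points in counts. Adding the unclassified genes left the ratios at 1.15 for the ubiquitous and 1.64 for the restricted class.

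Between libraries of equal replicate number, the deviations from the stage means correlated at 0.03, 0.16 and -0.28. Unequal numbers gave between -0.29 and 0.29. With 3 libraries a stage such values cannot show whether the libraries were paired. With the replicate block, 3 Atg genes were higher, 10 lower and 8 Vha genes higher, 6 of them ubiquitous. All genes gave 2596 higher and 3064 lower, and the calls of Vha13, Vha36-1 and VhaAC45 were lost. Members with few counts, such as Atg10, Vha68-1 and VhaM9.7-a, have the widest errors. Identity between paralogs and promoter motifs were not run.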

Other observations

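Below the 10-point limit on transcript shares, a minor transcript of Vha100-2 (FBtr0083657) made up 2.60%, 2.41% and 4.28% of the gene at wL3 and 10.1%, 10.7% and 12.7% at 2h APF. Its level was 1.36 TPM and 5.52 TPM, and as a feature of its own it rose by 1.99 on the log2 scale (edgeR, adjusted p = 0.00145), while the main transcript FBtr0083656 was at 42.8 and 44.0 TPM and was not called (adjusted p = 0.845). Within Vha16-1 the main transcript FBtr0086150 went from 63.8% ± 2.19 to 73.2% ± 1.22 of the gene and rose by 0.64 (adjusted p = 0.000116), whereas FBtr0086151 stayed at 72.3 and 75.02 TPM (adjusted p = 0.726). These transcripts were singled out after their values were seen.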
